A study of Mus musculus with 7 samples.

Results

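The 52 genes described here encode chromatin regulators, which are a recurrent class of mutated genes in medulloblastoma (MB). They were chosen by gene symbol as histone acetyltransferases, MLL and other lysine methyltransferases, lysine demethylases, SWI/SNF subunits, CHD remodelers, Polycomb proteins, histone deacetylases, BET proteins and enzymes of DNA methylation. All 52 were among the 34592 genes with deposited counts, and all 52 passed the filter on low counts, the smallest count of any of them in any tumor being 465. The counts hold no mutation calls, so the mutation status of these genes in the tumors was not examined here, and the list also holds relatives that complete a family.

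RNA was sequenced from 7 tumors that grew from a single mouse Group 3 (G3) MB tumorsphere line, # 19568. The line came from cerebellar granule neuron progenitors of early postnatal Trp53-/-;Cdkn2c-/- mice that had been given a Myc-IRES-GFP MSCV retrovirus, and all 7 tumors share these alleles and the Myc virus. In 4 tumors (WDR11OE) the tumorspheres had been infected with the lentivirus pCDH-EF1-WDR11-T2A-copGFP, which carries human WDR11 behind the EF1 promoter, and in 3 tumors (control) with the empty vector pCDH-EF1-MCS-T2A-copGFP, although the treatment label of the controls reads "none". CD1-nu/nu mice received the infected cells, without sorting, in the cortex, tumor chunks were taken once the hosts were moribund, and the chunks therefore mix infected and uninfected tumor cells with cells of the host. Tumors of the same group are numbered here in the order of their deposit.

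Chromatin regulators write, read or erase marks on histones and DNA, or move nucleosomes, and thereby set which genes can be transcribed. Acetyltransferases open chromatin and deacetylases reverse this. The MLL proteins methylate lysine 4 of histone H3 at enhancers and promoters, whereas Polycomb methylates lysine 27 of the same histone at silenced genes, and KDM6 demethylases remove the Polycomb mark. In human MB, inactivating mutations of KMT2D (mouse Mll2), KMT2C (Mll3), KDM6A, SMARCA4 and CREBBP are well known.

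Most of these genes were lower in WDR11OE tumors. With edgeR's quasi-likelihood test at an adjusted p under 0.05 and at any fold, 31 of the 52 fell, 7 rose and 14 did not pass, so that 73.1% were called. Among all 17389 genes tested, 33.9% were called, of which 18.1% of the genes tested rose and 15.8% fell, against 13.5% and 59.6% of the 52. Among the 7528 genes at least as abundant as the least abundant of the 52, 49.9% were called. The median log2 fold change was -0.42 over the 52 genes and 0.08 over all genes tested. Summed over the 52 genes, the level was 7707 to 8279 CPM (counts scaled to library size with TMM factors) in the controls and 5275 to 5946 CPM in WDR11OE, with a gap between the 2 ranges. Total counts per tumor were 32116095 to 87141305. Errors given after ± are standard errors of the fit, and p-values measure the spread between tumors of 1 line. Because tumor chunks were sequenced in bulk, fewer cells that use a gene and less RNA of it per cell cannot be told apart.

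At least a 2-fold change, with an average log2 CPM above 0, was reached by 9 of the 52, all lower (Crebbp, Ep300, Mll1, Mll2, Setd1a, Kdm6b, Smarcc1, Arid1a and Tet3), where 5.81% of all genes tested met the same rule. Of the 7528 genes at least as abundant as the least abundant of the 52, 287 were lower and 93 higher by that rule. With GC content and length corrected, 2 of the 52 (3.85%), Kdm6b and Arid1a, still changed at least 2-fold, against 3.93% of all genes tested, and the other 7 were at -0.96 to -0.55. The groups did not overlap in log2 CPM for 38 of the 52, with 31 lower and 7 higher in WDR11OE, against 42.7% of all genes tested. Of the same 7528 genes, 2116 were lower and 2139 higher without overlap. Without WDR11OE 1 or WDR11OE 2 the number of higher calls went from 7 to 3, and without control 2 it went to 4, while the number of lower calls stayed between 27 and 30 when any 1 tumor was left out. Higher calls over all genes tested went from 3150 to 1560 without WDR11OE 1, 1657 without WDR11OE 2 and 2045 without control 2. Lower calls over all genes tested were 2011 to 2868 when 1 tumor was left out, against 2744 with all 7 tumors.

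**Figure D1:**
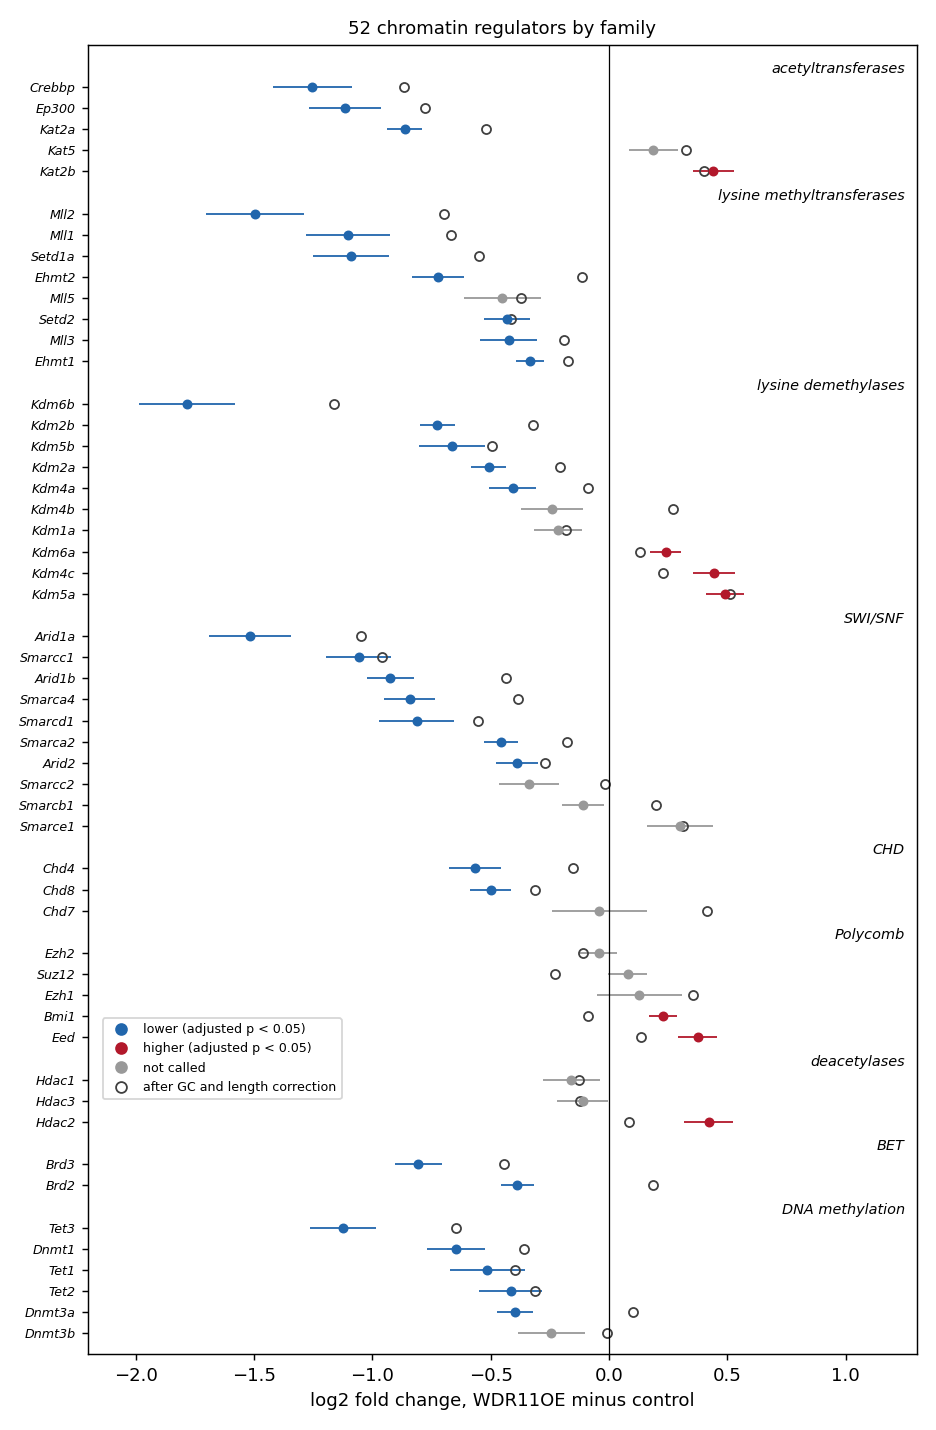
Log2 fold change of WDR11OE against control (x axis) of the 52 chromatin regulators (y axis), grouped by family. Filled points are fitted values with their standard error, colored by call, and open circles are the values after correction for exon GC content and length. Arid1a, Mll2 and Kdm6b lie farthest to the left, and Polycomb genes lie near 0 or to its right.

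**Figure D2:**
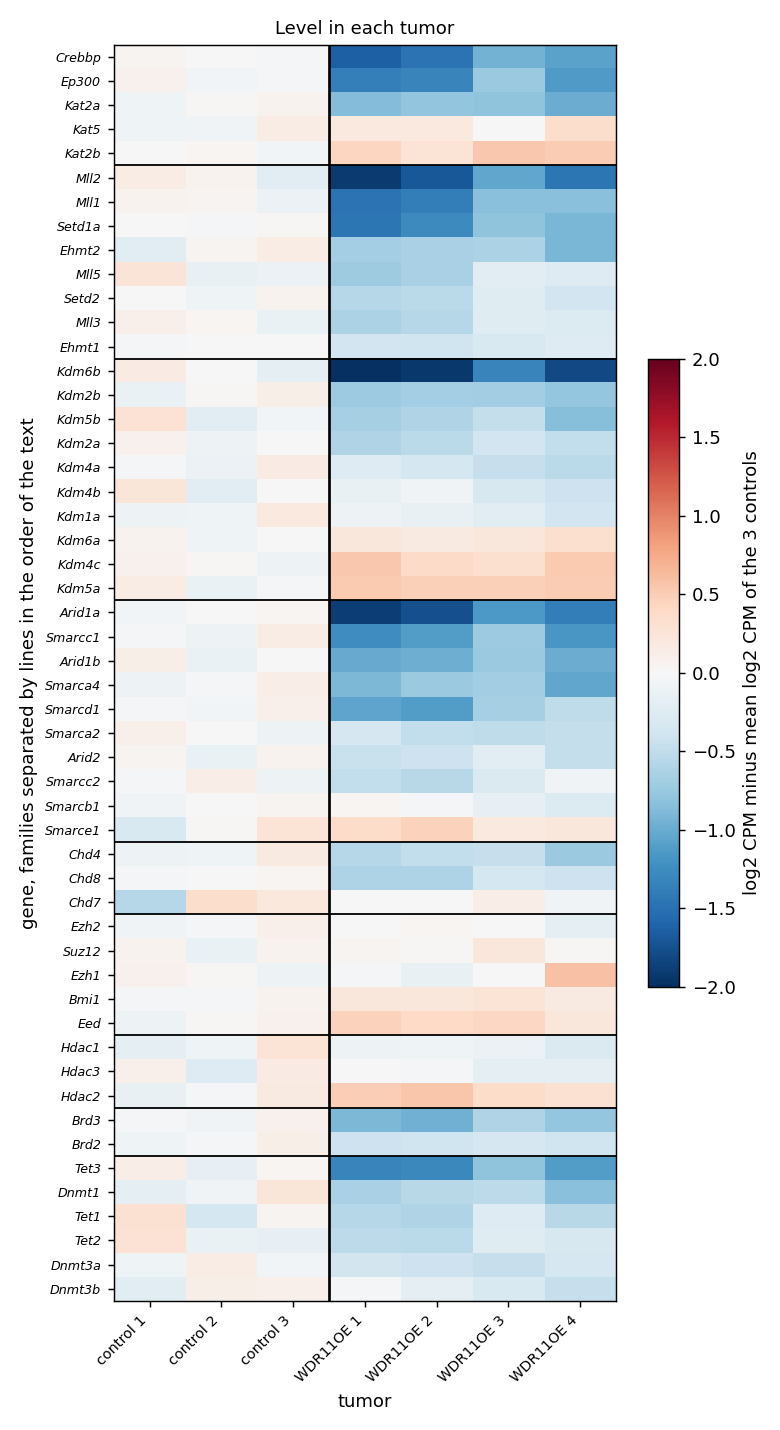
Level of each of the 52 genes (rows, by family) in each of the 7 tumors (columns), as log2 CPM minus the mean log2 CPM of the 3 controls. Blue is lower and red is higher than the control mean, and the 4 WDR11OE columns are blue for most rows.

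The change tracked base composition and length, in these genes as in the whole transcriptome. Across the 52 genes, the log2 fold change had a Spearman correlation of -0.57 with the GC content of their exons and of -0.37 with exon length, and across the 17125 tested genes with an annotation the values were -0.34 and -0.19. The genes share the same 7 libraries, so these correlations are descriptions. Of the 14 genes with an exon GC content under 46%, 5 rose and 6 fell, of the 18 between 46% and 52%, 2 rose and 9 fell, and of the 20 above 52%, 0 rose and 16 fell. By length, 4 rose and 2 fell of the 11 genes with exons under 5 kb, 2 rose and 17 fell of the 27 between 5 and 10 kb, and 1 rose and 12 fell of the 14 above 10 kb.

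With each library corrected for GC content, 3 of the 52 rose (Kat2b, Kat5 and Eed) and 31 fell, where 13.7% of all genes tested rose and 14.3% fell. With GC content and length corrected together, 2 rose (Kat2b and Kdm5a) and 16 fell, where 11.9% and 12.9% of all genes tested did so, and the median of the 52 was -0.19. Of the 7528 genes at least as abundant as the least abundant of the 52, 1299 rose and 1825 fell with the GC correction. With both corrections, 1297 of them rose and 1419 fell. The 16 were Crebbp, Ep300, Kat2a, Mll1, Mll2, Setd1a, Setd2, Kdm5b, Kdm6b, Smarca4, Smarcc1, Arid1a, Arid1b, Chd8, Brd3 and Tet3. Whether composition and length trends arose in library preparation was not tested and, since control and WDR11OE libraries carry numbers from distinct series, a difference of series cannot be told apart from the condition.

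**Figure D3:**
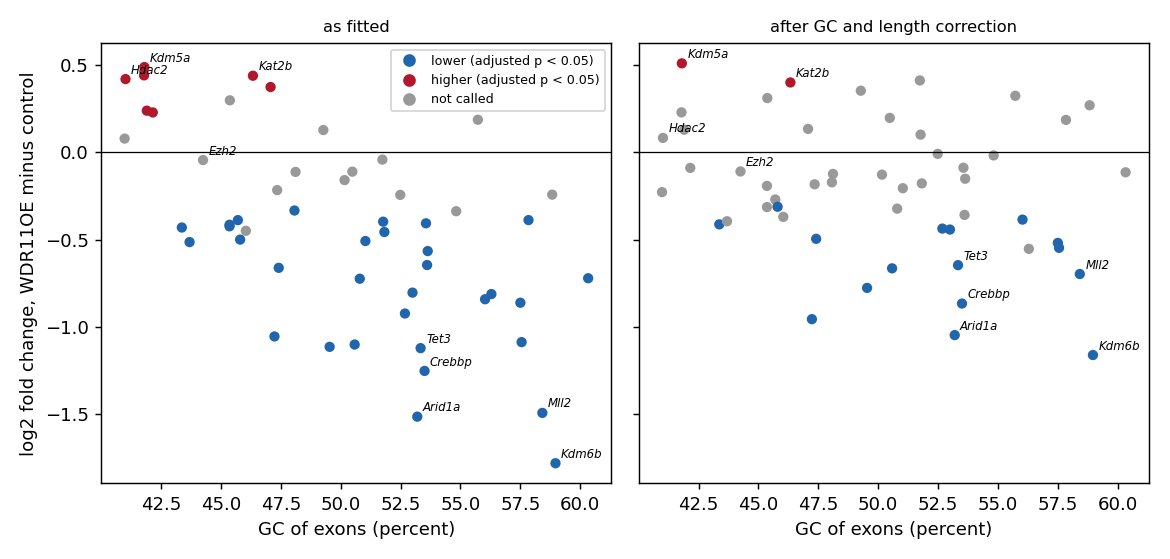
Log2 fold change of WDR11OE against control (y axis) against the GC content of the exons in percent (x axis) for the 52 genes, as fitted (left) and after correction for GC content and length (right), colored by the call in that fit. On the left no gene above 52% GC is higher, and on the right Kdm6b, Arid1a, Smarcc1 and Crebbp are the lowest points.

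For some other cells that tumor chunks can hold, the summed level of the markers differed between the groups, where 33.9% of all genes tested were called. Astrocyte (1 of 10 called), oligodendrocyte (1 of 12), microglia and macrophage (0 of 14) and erythroid markers (0 of 5 tested) had sums that overlapped between the groups. Summed over 10 fibroblast and meninges markers, the level was 4133 to 4790.2 CPM in the controls and 1675 to 2162 CPM in WDR11OE, and 4 of the 10 fell (Col3a1, Pdgfrb, Fn1 and Vim). Most of this sum was the collagen Col3a1, which went from 2971 to 1111 CPM on average, whereas Dcn and Lum had higher means in WDR11OE and did not pass (8.95 and 18.6 CPM, 4.82 and 6.63 CPM). Col1a1 overlapped between the groups, at 202 to 1071 CPM in the controls and 81.9 to 283 CPM in WDR11OE, and did not pass. The called fibroblast and meninges markers were 40% of their list, and 3 of the 10 fell with GC content and length corrected. Summed over 11 endothelial markers the level was 179 to 233 CPM in the controls and 121 to 159 CPM in WDR11OE, and 3 of the 11 fell (27.3%), or 2 with GC content and length corrected. Vwf, which went from 41.6 to 27.5 CPM on average, did not pass. The other direction was taken by 4 of the 11 (Pecam1, Tek, Emcn and Ocln), none of which passed, with Pecam1 at 17.6 and 19.2 CPM on average. Summed over 12 muscle markers it was 5.03 to 7.25 CPM against 51.3 to 150.0 CPM, with Mb, the muscle oxygen carrier, at 0 in every control. Neuron markers, summed over 15 genes, ranged from 110 to 556 CPM in the controls and from 27.6 to 813 CPM in WDR11OE, highest in control 1 and WDR11OE 4, and none of the 15 passed the test. In a fit without control 1 and WDR11OE 4, chosen after seeing the data, 31 of the 52 genes fell and 4 rose. Of all 17369 genes tested in that fit, 3098 fell and 2435 rose, against 2744 and 3150 with all 7 tumors. Of the 23 proliferation genes, 9 rose and 1 fell, but 4 rose and 3 fell with GC content and length corrected. The part of these markers in the results was not tested. Among the 18 genes of granule neuron progenitors and G3 MB, Atoh1 was at 0 in all 7 tumors and Otx2 was below 0.5 CPM in each, whereas Myc, the driver of the model, fell from 914 to 347 CPM on average. Of the 15 genes of this list that were tested, 2 fell, Myc among them, and 0 rose (13.3% called). Their median log2 fold change was 0.03, and 2 fell and 2 rose with GC content and length corrected. The row of mouse Wdr11 checks the labels only in part, since the transgene is human, and it was at 58.3 to 59.3 CPM in the controls and at 61.0 to 68.9 CPM in WDR11OE (log2 fold change 0.16 ± 0.06, adjusted p = 0.091).

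Among the 5 acetyltransferases, 3 fell, 1 rose and 1 did not pass. Crebbp and Ep300 encode the paralogous coactivators CBP and p300, which acetylate histone H3 at lysine 27 of active enhancers. Crebbp (NCBIM37 chr16:4084048-4213404, - strand, ENSMUSG00000022521) was at 222, 214 and 209.7 CPM in the controls and at 69.2, 77.5, 112 and 103 CPM in WDR11OE (log2 fold change -1.25 ± 0.17, adjusted p = 0.0019). Ep300 (NCBIM37 chr15:81415781-81482507, + strand, ENSMUSG00000055024) was at 169, 153 and 154 CPM in the controls and at 61.4, 63.7, 95.1 and 72.5 CPM in WDR11OE (log2 fold change -1.12 ± 0.15, adjusted p = 0.0020). Both genes were lower in each of the 4 WDR11OE tumors than in any control, and both fell at least 2-fold, but were at -0.87 and -0.78 with GC content and length corrected. Per kilobase of exon, Crebbp was 1.97 to 2.09 times as abundant as Ep300 in the controls and 1.69 to 2.12 times in WDR11OE, and the ratio overlapped between the groups (exact permutation test, p = 0.171).

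Kat2a and Kat2b, which encode the GCN5 and PCAF paralogs, moved apart. Kat2a was at 95.9, 104 and 107 CPM in the controls and at 56.0, 59.0, 58.5 and 51.0 CPM in WDR11OE (log2 fold change -0.86 ± 0.07, adjusted p = 0.00092). Kat2b was at 24.4, 24.8 and 23.3 CPM in the controls and at 32.7, 29.2, 35 and 34.4 CPM in WDR11OE (log2 fold change 0.44 ± 0.09, adjusted p = 0.0078). The groups overlapped for neither gene. A pseudogene row, Kat2b-ps, matches Kat2b over 1452 bases at up to 95.1% identity but held at most 8 counts in any tumor. Kat5, which encodes TIP60 and shares 17.9% of its exon bases with Rnaseh2c on the opposite strand, ranged from 27.4 to 36.7 CPM over the 7 tumors and did not pass (log2 fold change 0.19 ± 0.10, adjusted p = 0.20).

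Of the 8 lysine methyltransferases, 7 fell. With edgeR, 0 rose, and 0 did so at an unadjusted p under 0.05, with DESeq2 or with limma-voom, which also holds for the SWI/SNF, CHD, BET and DNA methylation genes. The study had found Mll2 and Mll3, the mouse orthologs of KMT2D and KMT2C, mutated in mouse MB of the WNT subgroup. Mll2 (NCBIM37 chr15:98662100-98701614, - strand, ENSMUSG00000048154) had the largest change of the family. It was at 386, 368 and 301 CPM in the controls and at 92.4, 108, 169 and 129 CPM in WDR11OE (log2 fold change -1.495 ± 0.21, adjusted p = 0.0021), and its highest WDR11OE value, in WDR11OE 3, lay well below its lowest control value. Its change was -0.70 with GC content and length corrected. Mll1, the trithorax homolog fused to other genes in leukemia, was at 259, 255 and 226 CPM in the controls and at 88.7, 94.6, 138 and 138 CPM in WDR11OE (log2 fold change -1.10 ± 0.18, adjusted p = 0.0038). Mll3, the partner of Mll2 in monomethylation at enhancers, was at 200.2, 193 and 170.1 CPM in the controls and at 120.5, 126, 159 and 154 CPM in WDR11OE (log2 fold change -0.42 ± 0.12, adjusted p = 0.032). The groups overlapped for none of the 3, but the change of Mll3 no longer passed after correction for GC content and length (adjusted p = 0.082), nor did it pass in 8 of the 18 alternative settings of the fit (other tools, scalings, filters and corrections, or fewer tumors, at any fold). Mll5 missed the threshold (log2 fold change -0.45 ± 0.16, adjusted p = 0.071), with WDR11OE values of 59.1 to 84.0 CPM below control values of 87.7 to 116 CPM.

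Setd1a, a catalytic subunit of the SET1 complex that trimethylates H3 lysine 4 at promoters, was at 30.3, 29.3 and 30.4 CPM in the controls and at 11, 12.4, 17.1 and 15.9 CPM in WDR11OE (log2 fold change -1.09 ± 0.16, adjusted p = 0.0027). Its value is uncertain in so far as 51.9% of its exon bases are also annotated to Hsd3b7 on the same strand. Ehmt2, which encodes the H3 lysine 9 methyltransferase G9a, was at 181, 218 and 232 CPM in the controls and at 131, 134, 134 and 111 CPM in WDR11OE (log2 fold change -0.72 ± 0.11, adjusted p = 0.0031). Ehmt2 has the highest exon GC content of the 52, 60.3%, and its change was -0.11 with an adjusted p of 0.50 once GC content and length were corrected. Its partner Ehmt1 fell less (log2 fold change -0.33 ± 0.06, adjusted p = 0.0055), as did Setd2, the enzyme of H3 lysine 36 trimethylation (log2 fold change -0.43 ± 0.10, adjusted p = 0.014).

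Of the 10 lysine demethylases, 5 fell, 3 rose and 2 did not pass, and the KDM6 pair had the largest difference of the 5 pairs of paralogs compared. Kdm6b (NCBIM37 chr11:69212010-69227177, - strand, ENSMUSG00000018476), which encodes the inducible H3 lysine 27 demethylase JMJD3, was at 131, 118 and 103 CPM in the controls and at 25.3, 30.9, 47.1 and 33.4 CPM in WDR11OE (log2 fold change -1.78 ± 0.20, adjusted p = 0.0013). Kdm6a (UTX), the X-linked enzyme with the same substrate and a subunit of the Mll2 and Mll3 complexes, was at 60.1, 54.3 and 57.9 CPM in the controls and at 67.1, 64.9, 67.4 and 71.9 CPM in WDR11OE (log2 fold change 0.24 ± 0.07, adjusted p = 0.027). Kdm6b had the largest decrease of all 52 genes, and Kdm6a was higher in each WDR11OE tumor than in any control. Per kilobase of exon, the ratio of Kdm6b to Kdm6a was 2.57, 2.55 and 2.09 in the controls and 0.443, 0.558, 0.820 and 0.546 in WDR11OE, so that Kdm6b was the more abundant of the pair in the controls and the less abundant in WDR11OE at uncorrected levels (exact permutation test, p = 0.0286, the smallest that 35 splits allow, and 0.143 adjusted over the 5 pairs compared). Since each of these genes separated the groups, in opposite directions, their ratio had to separate them too, and this p adds no support. The 5 pairs were also chosen after seeing the data. Exon GC content differs between the 2 genes, and with GC content and length corrected Kdm6b was at -1.16 and Kdm6a at 0.13. The log2 difference in the ratio then went from -2.05 to -1.29, which would take the geometric mean ratio of the controls from 2.39 to 0.976, close to equal levels. The rise of Kdm6a was not stable, since 11 of the 18 alternative settings left it above the threshold and correction for GC content turned it to -0.07.

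Kdm2a and Kdm2b encode demethylases of H3 lysine 36 that bind unmethylated CpG islands, and Kdm2b brings a variant Polycomb complex there. Kdm2b was at 54.4, 60.3 and 64.3 CPM in the controls and at 36.0, 37.0, 36.6 and 34.9 CPM in WDR11OE (log2 fold change -0.72 ± 0.07, adjusted p = 0.0011). Kdm2a was at 166, 146 and 157 CPM in the controls and at 103, 107, 119 and 111 CPM in WDR11OE (log2 fold change -0.51 ± 0.08, adjusted p = 0.0028). Neither passed after correction for GC content and length (adjusted p = 0.087 and 0.056). The H3 lysine 4 demethylases Kdm5a and Kdm5b went in opposite directions. Kdm5a was at 164, 135 and 146 CPM in the controls and at 213, 206, 205 and 209 CPM in WDR11OE (log2 fold change 0.49 ± 0.08, adjusted p = 0.0039), and Kdm5b fell from a mean of 206 to 130 CPM (log2 fold change -0.66 ± 0.14, adjusted p = 0.011). Within the KDM4 family, which demethylates H3 lysines 9 and 36, Kdm4c rose (log2 fold change 0.44 ± 0.09, adjusted p = 0.0081), Kdm4a fell (log2 fold change -0.41 ± 0.10, adjusted p = 0.018) and Kdm4b did not pass (log2 fold change -0.24 ± 0.13, adjusted p = 0.20), nor did Kdm1a, which encodes LSD1 (log2 fold change -0.22 ± 0.10, adjusted p = 0.14).

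Of the 10 SWI/SNF subunits, 7 fell. SWI/SNF complexes use ATP to slide or eject nucleosomes, with Smarca4 (BRG1) or Smarca2 (BRM) as the motor and the ARID proteins as subunits that define the complex type. Arid1a (NCBIM37 chr4:133234923-133312684, - strand, ENSMUSG00000007880) was at 229, 240.5 and 246 CPM in the controls and at 64.4, 70.6, 107 and 91.4 CPM in WDR11OE (log2 fold change -1.52 ± 0.17, adjusted p = 0.0013). Its paralog Arid1b was at 429, 358 and 397 CPM in the controls and at 196, 201, 236 and 198 CPM in WDR11OE (log2 fold change -0.92 ± 0.10, adjusted p = 0.0011). The groups overlapped for neither gene, and both kept an adjusted p under 0.05 in all 18 alternative settings, as did the scaffold subunit Smarcc1. Smarcc1 was at 341, 326 and 388 CPM in the controls and at 148, 162, 211 and 156 CPM in WDR11OE (log2 fold change -1.06 ± 0.14, adjusted p = 0.0017). It has an exon GC content of 47.2%, and its change after correction for GC content and length was -0.96.

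Smarca4 was at 334, 352 and 393 CPM in the controls and at 192, 214, 222 and 174 CPM in WDR11OE (log2 fold change -0.84 ± 0.11, adjusted p = 0.0016). Smarca2 was at 90.6, 84.5 and 79.0 CPM in the controls and at 66.7, 60.1, 59.3 and 60.8 CPM in WDR11OE (log2 fold change -0.46 ± 0.07, adjusted p = 0.0036). Both motors fell, and per kilobase of exon Smarca4 was 3.65 to 4.92 times as abundant as Smarca2 in the controls and 2.83 to 3.71 times in WDR11OE, a difference that did not pass (exact permutation test, p = 0.0857). Smarcd1 (log2 fold change -0.81 ± 0.16, adjusted p = 0.0073) and Arid2 of the PBAF complex (log2 fold change -0.39 ± 0.09, adjusted p = 0.014) also fell. The core subunit Smarcb1, lost in rhabdoid tumors, was at 71.2, 75.6 and 78.0 CPM in the controls and at 76.7, 72.7, 66.5 and 61.7 CPM in WDR11OE and did not pass (log2 fold change -0.11 ± 0.09, adjusted p = 0.38). Smarcc2 (log2 fold change -0.34 ± 0.13, adjusted p = 0.079) and Smarce1 (log2 fold change 0.30 ± 0.14, adjusted p = 0.14) did not pass either.

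Among the 3 CHD remodelers, 2 fell. Chd4, the motor of the NuRD complex and per kilobase of exon the most abundant of the 52 genes in both groups, was at 576, 584 and 699 CPM in the controls and at 417, 439, 448 and 370.2 CPM in WDR11OE (log2 fold change -0.57 ± 0.11, adjusted p = 0.0072). Chd8 was at 194, 197 and 202 CPM in the controls and at 128, 128, 155 and 148 CPM in WDR11OE (log2 fold change -0.50 ± 0.09, adjusted p = 0.0047). Chd8 passed in all 18 alternative settings, whereas Chd4 did not after correction for GC content and length (adjusted p = 0.44). Chd7 varied most among the controls, from 41.9 to 79.1 CPM, and these enclosed the 4 WDR11OE values (log2 fold change -0.04 ± 0.20, adjusted p = 0.90).

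Of the 5 Polycomb genes, 2 rose and 0 fell with edgeR, and 0 fell also at an unadjusted p under 0.05, with DESeq2 or with limma-voom. With the GC correction, 1 rose and 1 fell (Suz12, log2 fold change -0.27, adjusted p = 0.040), and with GC content and length corrected 0 passed. Ezh2 and Ezh1 encode the alternative methyltransferases of Polycomb repressive complex PRC2, and Eed and Suz12 its core partners. Ezh2 was at 94.9, 96.4 and 107 CPM in the controls and at 98.7, 101, 98.5 and 87.2 CPM in WDR11OE (log2 fold change -0.04 ± 0.08, adjusted p = 0.71). Ezh1 was at 30.3, 29.0 and 26.8 CPM in the controls and at 28.2, 26.0, 28.5 and 42.8 CPM in WDR11OE (log2 fold change 0.13 ± 0.18, adjusted p = 0.62). The groups overlapped for both, and so did their ratio per kilobase, 3.76 to 4.79 in the controls and 2.44 to 4.69 in WDR11OE (exact permutation test, p = 0.83). Eed was at 32.9, 35.6 and 37.3 CPM in the controls and at 48.4, 46.6, 46.8 and 41.2 CPM in WDR11OE (log2 fold change 0.38 ± 0.08, adjusted p = 0.012), and Suz12 did not pass (log2 fold change 0.08 ± 0.08, adjusted p = 0.50). Bmi1, a PRC1 subunit, was at 92.5, 91.5 and 98.8 CPM in the controls and at 111, 110.3, 114 and 107 CPM in WDR11OE (log2 fold change 0.23 ± 0.06, adjusted p = 0.021). Each WDR11OE value of Eed and Bmi1 lay above each control value, but neither passed after correction for GC content and length (adjusted p = 0.23 and 0.30), and the value of Bmi1 was then -0.09.

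Of the 3 deacetylases, which are the catalytic subunits of corepressor complexes, 1 rose. Hdac2 was at 133, 145 and 168 CPM in the controls and at 207, 216, 190.4 and 182 CPM in WDR11OE (log2 fold change 0.42 ± 0.10, adjusted p = 0.018). The groups did not overlap, but the change was 0.07 after correction for GC content, its exons holding 41.0% GC. Hdac1 (log2 fold change -0.16 ± 0.12, adjusted p = 0.36) and Hdac3 (log2 fold change -0.11 ± 0.11, adjusted p = 0.48) did not pass. The value of Hdac1 is uncertain, since the gene row Gm10093 matches it over 945 bases at up to 99.3% identity and held 649 to 1773 counts per tumor, against at least 2019 counts of Hdac1.

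Both BET genes, whose proteins bind acetylated histones, fell. Brd3 was at 142, 138 and 154 CPM in the controls and at 77.2, 74.2, 95.4 and 84.4 CPM in WDR11OE (log2 fold change -0.80 ± 0.10, adjusted p = 0.0015). Brd2 was at 208, 215 and 238 CPM in the controls and at 164, 167, 175 and 166 CPM in WDR11OE (log2 fold change -0.39 ± 0.07, adjusted p = 0.0055). Brd3 passed in all 18 alternative settings, whereas Brd2 had a value of 0.19 after correction for GC content and length.

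Of the 6 genes of DNA methylation, 5 fell (3 with limma-voom). Tet3, which encodes an enzyme that oxidizes 5-methylcytosine, was at 252, 204 and 235 CPM in the controls and at 92.3, 93.7, 131 and 106 CPM in WDR11OE (log2 fold change -1.12 ± 0.14, adjusted p = 0.0015). Tet1 was at 149, 94.6 and 125 CPM in the controls and at 81.6, 79.2, 100.9 and 82.2 CPM in WDR11OE (log2 fold change -0.51 ± 0.16, adjusted p = 0.042). Tet1 overlapped between the groups, with WDR11OE 3 above control 2, and Tet1 and Tet2 (log2 fold change -0.42 ± 0.13, adjusted p = 0.048) lost the call in 10 and 13 of the 18 alternative settings. The maintenance methyltransferase Dnmt1 was at 296, 321 and 399 CPM in the controls and at 215, 229, 233 and 189 CPM in WDR11OE (log2 fold change -0.65 ± 0.12, adjusted p = 0.0072). The de novo enzyme Dnmt3a was at 154, 182 and 159 CPM in the controls and at 128, 124, 119.5 and 129.8 CPM in WDR11OE (log2 fold change -0.40 ± 0.08, adjusted p = 0.0073). Its paralog Dnmt3b was at 19.0, 24.2 and 23.9 CPM in the controls and at 21.8, 19.7, 17.9 and 16.1 CPM in WDR11OE and did not pass (log2 fold change -0.24 ± 0.14, adjusted p = 0.23). Dnmt3a did not overlap between the groups, but its value was 0.10 after correction for GC content and length. The ratio of Dnmt3a to Dnmt3b per kilobase was 2.04 to 2.50 in the controls and 1.80 to 2.48 in WDR11OE (exact permutation test, p = 0.314).

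**Figure D4:**
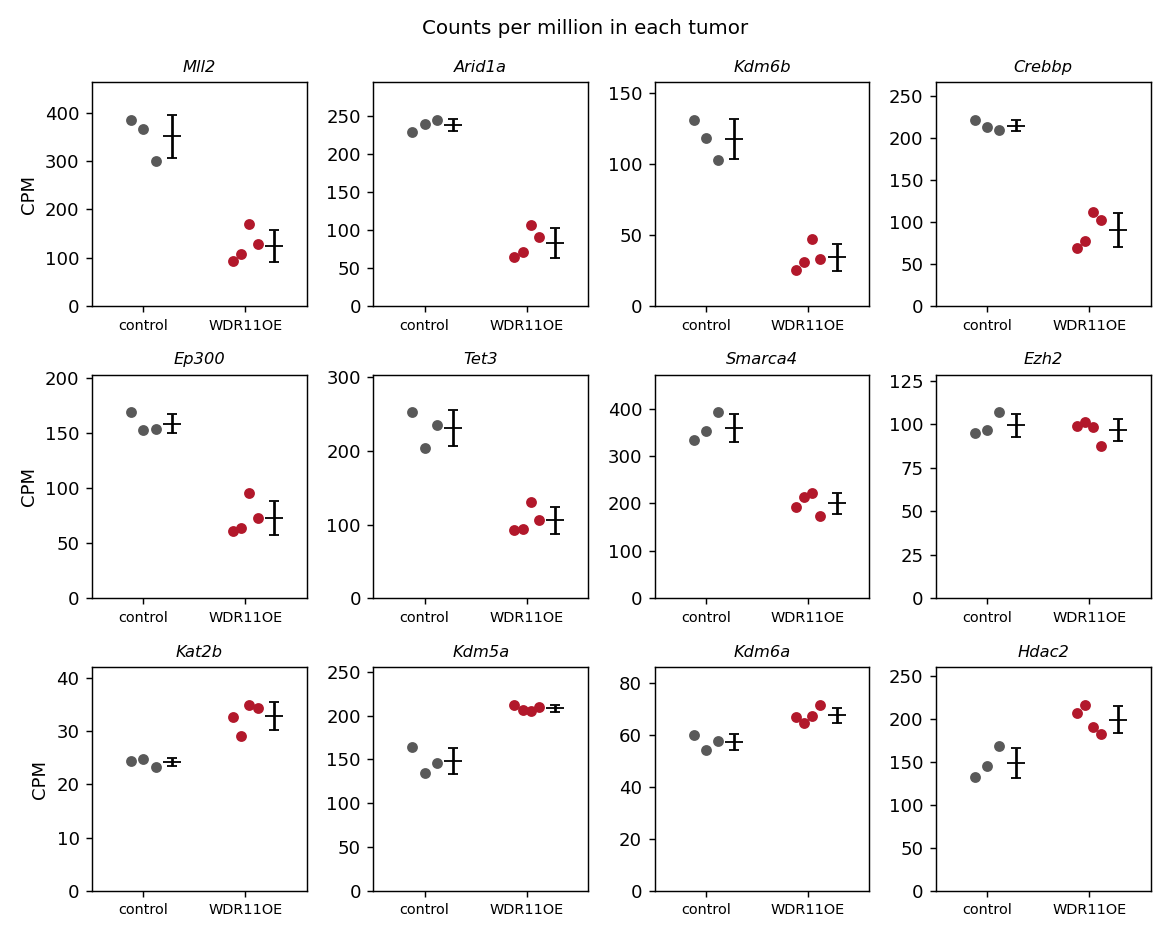
CPM (y axis, from 0) of 12 of the genes in each of the 3 control and 4 WDR11OE tumors (points), with the mean and SD of each group beside them (bars). Mll2, Arid1a, Kdm6b, Crebbp, Ep300, Tet3 and Smarca4 are lower in all 4 WDR11OE tumors than in any control, Ezh2 overlaps, and Kat2b, Kdm5a, Kdm6a and Hdac2 are higher.

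The size of the decrease differed among the WDR11OE tumors. Of the 31 genes that fell, 24 had their highest WDR11OE value in WDR11OE 3, and 15 had their lowest in WDR11OE 1, 9 in WDR11OE 4, 5 in WDR11OE 2 and 2 in WDR11OE 3. Mll2, for example, was at 92.4 CPM in WDR11OE 1 and at 169 CPM in WDR11OE 3. The titles of WDR11OE 1 and WDR11OE 2 share a number that the labels do not explain, and over the 52 genes these tumors were the most alike of their group (Pearson correlation of log2 CPM 0.996, against 0.954 to 0.981 for the other pairs). Whether they share a host or a culture is not given in the sources used here, and the counts of calls without either of them are given above. Across the 38 genes that were called, 16 kept their call in all 18 alternative settings of the fit, which leave the rule of call as it is, and 15 of these were lower: Crebbp, Ep300, Kat2a, Mll1, Mll2, Setd1a, Kdm5b, Kdm6b, Smarca4, Smarcc1, Arid1a, Arid1b, Chd8, Brd3 and Tet3. The other was Kat2b. Of these 16, 9 also met the 2-fold rule.

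Per kilobase of exon, the levels of the 52 genes in the controls ranged from 3.86 CPM per kb for Ezh1 to 77.3 for Chd4. Behind Chd4 came Dnmt1 at 64.3, Smarca4 at 55.5 and Smarcc1 at 52.9 CPM per kb. In WDR11OE the order was Chd4 at 52.2, Hdac2 at 44.4, Dnmt1 at 41.1 and Smarca4 at 31.0 CPM per kb. Hdac2 moved from rank 6 to rank 2 of 52, Crebbp from rank 9 to rank 29 and Mll2 from rank 28 to rank 44. With the changes corrected for GC content and length applied to the control levels, Hdac2 would stay at rank 6, Crebbp would go to rank 25 and Mll2 to rank 34.

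The partners and relatives of these genes were examined in 10 further lists with 191 genes, all of which passed the filter. Of the 191, 29 rose and 65 fell (49.2% called), and their median log2 fold change was -0.16. Among all genes tested, 33.9% were called, 18.1% higher and 15.8% lower, with a median of 0.08. Among the 7528 abundant genes described above, 49.9% were called, with 1884 higher and 1876 lower. The 191 thus differed from these abundant genes in direction rather than in the share called. By list, the share called was 33.3% (other genes of DNA methylation) to 71.4% (other lysine methyltransferases). With GC content and length corrected, 23 of the 191 rose and 51 fell, where 11.9% and 12.9% of all genes tested did so. Without these corrections, the number of the 191 that rose was 8 without WDR11OE 1 or WDR11OE 2, 12 without control 2, 18 without WDR11OE 3 and 19 without control 1. Over all genes tested, the number that rose also went down when tumors were left out. It went from 3150 to 1560 without WDR11OE 1, 1657 without WDR11OE 2, 2045 without control 2, 2490 without WDR11OE 3 and 2569 without control 1. Among 21 other lysine methyltransferases, 12 fell and 3 rose. Prdm2 (log2 fold change -0.87 ± 0.08, adjusted p = 0.00093) and Setd8, the H4 lysine 20 monomethyltransferase (log2 fold change -1.01 ± 0.11, adjusted p = 0.0012), fell with the smallest p, and Setdb2 (log2 fold change 0.46 ± 0.10, adjusted p = 0.012) and Setd3 (log2 fold change 0.29 ± 0.07, adjusted p = 0.020) rose. The remaining H3 lysine 4 methyltransferases of the MLL and SET1 family, Setd1b (log2 fold change -2.05 ± 0.31, adjusted p = 0.0029) and Wbp7, the KMT2B ortholog (log2 fold change -1.12 ± 0.15, adjusted p = 0.0020), were chosen after their values were seen and fell as well.

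Of 12 subunits of the MLL and SET1 complexes, 5 fell, among them Hcfc1 (log2 fold change -1.11 ± 0.14, adjusted p = 0.0016) and Ncoa6 (log2 fold change -1.36 ± 0.21, adjusted p = 0.0034), and 1 rose, the chromatin tether Psip1 (log2 fold change 0.33 ± 0.10, adjusted p = 0.043). The 4 shared core subunits Ash2l, Rbbp5, Wdr5 and Dpy30, also named after their values were seen, did not pass. Of 16 other acetyltransferases and their subunits, 6 fell, with Brpf1 (log2 fold change -0.67 ± 0.06, adjusted p = 0.00092) and Brd1 (log2 fold change -0.53 ± 0.06, adjusted p = 0.0014) having the smallest p, and Hat1, which acetylates new histone H4 (log2 fold change 0.72 ± 0.11, adjusted p = 0.0027), and Taf1 (log2 fold change 0.21 ± 0.06, adjusted p = 0.027) rose. Of 16 other demethylases and partners, 4 fell, including Phf2 (log2 fold change -1.26 ± 0.11, adjusted p = 0.00092) and Kdm3b (log2 fold change -0.66 ± 0.10, adjusted p = 0.0024), and 3 rose, including the Y-linked Uty (log2 fold change 0.81 ± 0.16, adjusted p = 0.0072) and Kdm5d (log2 fold change 0.66 ± 0.12, adjusted p = 0.0052), the homologs of Kdm6a and Kdm5c.

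Among 19 other SWI/SNF subunits, 6 fell and 4 rose. Gltscr1 (log2 fold change -1.83 ± 0.27, adjusted p = 0.0026), a subunit of the noncanonical BAF complex, and Dpf2 (log2 fold change -0.67 ± 0.08, adjusted p = 0.0012) fell, whereas Brd9 (log2 fold change 0.53 ± 0.07, adjusted p = 0.0016), which marks the same noncanonical complex, and Brd7 of PBAF (log2 fold change 0.29 ± 0.06, adjusted p = 0.010) rose. Among 27 other CHD, ISWI and NuRD genes, 7 fell, led by the NuRD subunits Gatad2b (log2 fold change -1.44 ± 0.13, adjusted p = 0.00098) and Mta1 (log2 fold change -1.10 ± 0.11, adjusted p = 0.0011), and 4 rose, including Atrx (log2 fold change 0.64 ± 0.08, adjusted p = 0.0018) and Hells (log2 fold change 0.53 ± 0.09, adjusted p = 0.0043), which encode ATP-driven remodelers of heterochromatin.

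Of 30 other Polycomb subunits, 12 fell and 2 rose. The PRC1 subunits Phc2 (log2 fold change -0.93 ± 0.08, adjusted p = 0.00093) and Phc1 (log2 fold change -0.95 ± 0.10, adjusted p = 0.0011) fell, and Mtf2, which brings PRC2 to CpG islands (log2 fold change 0.69 ± 0.09, adjusted p = 0.0021), and Pcgf5 (log2 fold change 0.41 ± 0.11, adjusted p = 0.028) rose. Of 23 other deacetylases and corepressors, 8 fell, among them Hdac7 (log2 fold change -0.81 ± 0.12, adjusted p = 0.0029), and 4 rose, including Sirt1 (log2 fold change 0.46 ± 0.07, adjusted p = 0.0028) and Sap30 (log2 fold change 0.83 ± 0.21, adjusted p = 0.020). Of 12 other bromodomain genes, Zmynd8 (log2 fold change -0.74 ± 0.09, adjusted p = 0.0015) was among the 3 that fell, and Brwd1 (log2 fold change 0.26 ± 0.08, adjusted p = 0.045) and Trim24 (log2 fold change 0.21 ± 0.07, adjusted p = 0.045) among the 3 that rose. Of 15 other genes of DNA methylation, 2 fell, among them the glycosylase gene Tdg (log2 fold change -0.42 ± 0.09, adjusted p = 0.011), and 3 rose, including Mbd4 (log2 fold change 0.50 ± 0.10, adjusted p = 0.0071) and Uhrf2 (log2 fold change 0.35 ± 0.09, adjusted p = 0.021).

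**Figure D5:**
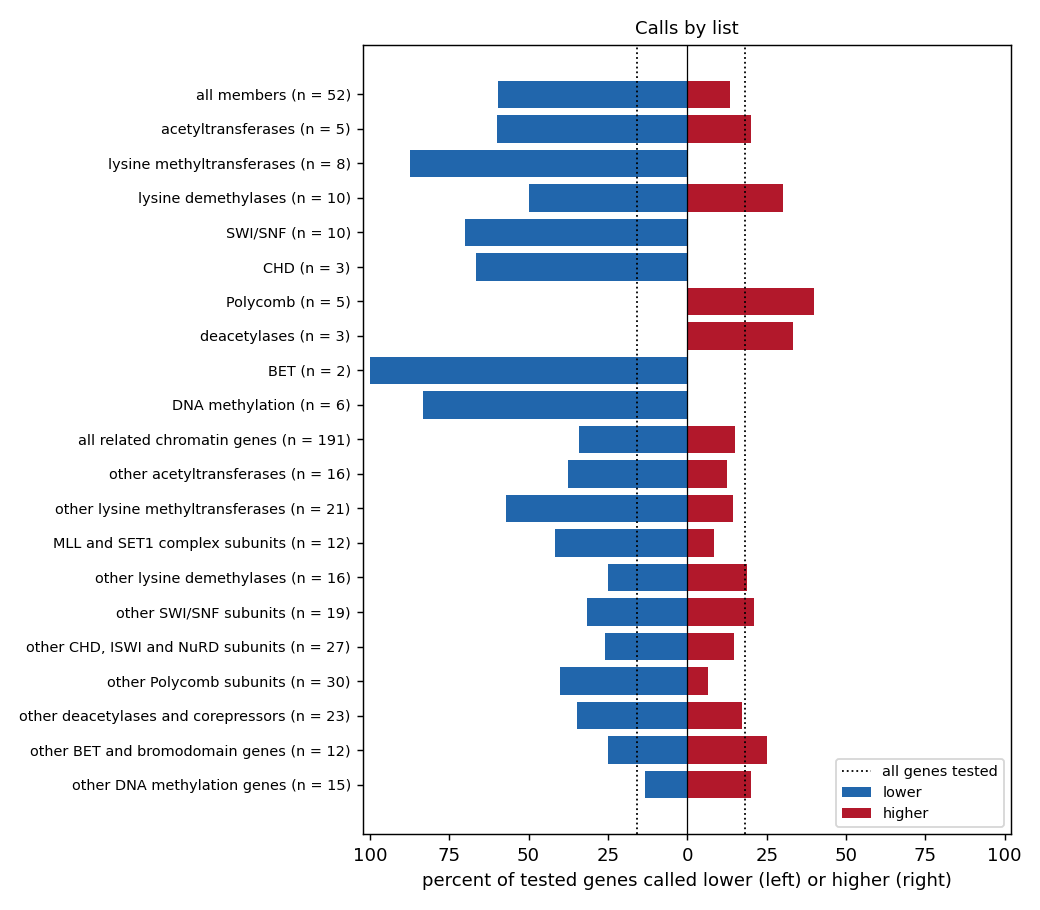
Percent of the tested genes of each list (y axis, with the number of genes) called lower (left, blue) or higher (right, red) in WDR11OE at an adjusted p under 0.05. Dotted lines mark the share of all genes tested, 15.8% lower and 18.1% higher, and the lower share passes its line in most lists but not in Polycomb, deacetylases and other genes of DNA methylation.

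Because these tumors are driven by Myc, the promoters of the 52 genes were searched for the E-box CACGTG, the 6 bases bound by Myc and Max, which reads the same on both strands. RefSeq promoters on GRCm38.p6, from 250 bases before to 50 bases after a transcription start, were given for 42 of the 52 genes. The motif occurred in 7 of their 57 promoters (12.3%), against 7.15% of all 32851 promoters in the same table. It was found in a promoter of 3 of the 6 higher genes with an entry (Bmi1, Kdm4c and Kdm6a), of 2 of the 28 lower genes (Ehmt2 and Dnmt3a) and of 1 of the 8 genes not called (Kat5). These groups rest on the uncorrected fit. With GC content and length corrected, none of the called genes with the motif passed (adjusted p = 0.30 for Bmi1, 0.082 for Kdm4c, 0.15 for Kdm6a, 0.50 for Ehmt2 and 0.61 for Dnmt3a). A match is not a binding site, and these numbers are a description of the letters in the window. The promoters of Mll2, the most decreased of the lysine methyltransferases, of Ehmt2, a lower gene with the motif, and of Bmi1 and Kdm6a, higher genes with the motif, all by the uncorrected fit, are shown 5′ to 3′ with the E-box in capitals. They lie at chr15:98871156-98871455 (- strand, 62.7% GC, no E-box), chr17:34898224-34898523 (+ strand, 70.3% GC, E-boxes starting 232 and 26 bases before the start), chr2:18676768-18677067 (+ strand, 66.3% GC, 215 bases before) and chrX:18162325-18162624 (+ strand, 63.0% GC, 27 bases before).
Mll2: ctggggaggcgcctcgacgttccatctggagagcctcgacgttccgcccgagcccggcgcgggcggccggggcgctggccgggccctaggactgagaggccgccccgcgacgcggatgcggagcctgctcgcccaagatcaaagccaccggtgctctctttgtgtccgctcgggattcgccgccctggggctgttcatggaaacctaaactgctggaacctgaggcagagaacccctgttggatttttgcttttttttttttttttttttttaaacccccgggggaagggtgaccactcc
Ehmt2: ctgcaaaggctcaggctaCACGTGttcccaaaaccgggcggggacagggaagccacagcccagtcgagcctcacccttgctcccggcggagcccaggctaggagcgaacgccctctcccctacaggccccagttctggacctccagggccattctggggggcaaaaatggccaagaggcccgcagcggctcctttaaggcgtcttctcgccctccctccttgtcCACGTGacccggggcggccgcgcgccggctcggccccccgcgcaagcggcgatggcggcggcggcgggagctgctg
Bmi1: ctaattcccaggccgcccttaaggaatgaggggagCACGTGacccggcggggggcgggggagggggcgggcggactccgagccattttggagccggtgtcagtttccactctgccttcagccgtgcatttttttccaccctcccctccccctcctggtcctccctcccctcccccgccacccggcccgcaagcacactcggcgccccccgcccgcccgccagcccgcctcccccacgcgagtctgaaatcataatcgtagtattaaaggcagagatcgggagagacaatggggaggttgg
Kdm6a: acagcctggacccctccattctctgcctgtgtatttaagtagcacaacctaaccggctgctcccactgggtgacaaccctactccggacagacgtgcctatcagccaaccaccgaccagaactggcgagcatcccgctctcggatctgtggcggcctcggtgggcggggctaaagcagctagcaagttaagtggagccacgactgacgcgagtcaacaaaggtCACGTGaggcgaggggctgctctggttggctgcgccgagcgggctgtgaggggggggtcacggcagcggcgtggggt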

How the data were processed

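The authors mapped the reads of 7 tumors to the mouse assembly NCBIM37.67 (mm9) with the StrongArm pipeline, used HT-seq with GENCODE genes to count reads, and deposited these counts per gene without normalization. The processing notes also name CASAVA 1.7, STAR and BWA. The study describes total stranded RNA sequencing, the labels name the TruSeq RNA Library Preparation Kit v2, and the strand setting of the counting is not given in the sources used here.

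Counts were analysed in R 4.3.3. Of 34592 genes, 17389 passed filterByExpr of edgeR 4.0.16. After TMM scaling, edgeR's quasi-likelihood test (two-sided) compared the conditions with no other covariate, and p-values were adjusted over all genes tested by Benjamini-Hochberg. Genes with an adjusted p under 0.05 were called. CPM has no prior count, and log2 CPM has a prior count of 2. Exon GC content and length came from GENCODE vM1 on NCBIM37, which held 33606 of the genes, and were corrected per library with loess (span 0.3). Single values were compared by exact permutation over 35 splits, where the smallest p is 0.0286. The 5 ratios of paralogs and the fit without 2 tumors were added after seeing the data. Copies of the genes were sought with blastn 2.17.0 at 95% identity over at least 200 bases. Alternatives were DESeq2 1.42.0, limma 3.58.1 with voom, other scalings and filters, the corrections for GC content and length, leaving out each tumor and, for counts of calls alone, a 2-fold rule. On simulated data for 17158 genes, of which 200 were given a log2 fold change of 1.5 in size, the fit recovered 61.5% of them, and 5.38% of its calls were false. The simulation held no difference by GC content or length between the groups, and in the data 33.9% of all genes tested were called. These rates therefore need not hold for the calls given here.

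The 52 genes and all lists were chosen with earlier results of these data known, so counts within a list carry no test of the list. Every one of the 52 is accounted for. Values in every tumor are given for the called genes with the smallest p in each family, at most 4, for Mll2 and Mll3 and for the 5 pairs of paralogs. Of each related list, at most the 2 lower and the 2 higher called genes with the smallest p are named, and the exceptions are marked. Some genes of these lists are not reported here. The exome sequences and the qRT-PCR of the study were not analysed here. The libraries had no molecular identifiers, and counting error covers the sampling of reads alone.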

Additional observations from a re-analysis of the deposited data

Results flagged for a closer look

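Dixon's test set 1 of the 4 WDR11OE tumors apart for 5 of the 52 genes, where chance alone flags about 1 gene in 20. The value given is the gap to the nearest tumor divided by the range of log2 CPM in the group. WDR11OE 3 lay above the other three for Arid1b (0.883), Suz12 (0.869) and Tet1 (0.846), at 236 CPM against 196 to 201 CPM, at 134 CPM against 117 to 119 CPM, and at 100.9 CPM against 79.2 to 82.2 CPM. WDR11OE 4 lay below the others for Ehmt2 (0.861), at 111 CPM against 131 to 134 CPM, and for Hdac1 (0.856), at 54.9 CPM against 62.2 to 63.5 CPM. WDR11OE 4 also had the highest sum of neuron markers, 813 CPM, and the part of this in its values was not tested.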

How the results depend on the processing

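Of the 52 genes, between 28 and 33 fell with DESeq2, limma-voom, the 3 other scalings, the other filters and the GC correction, and their median log2 fold change stayed negative in every setting. Over all genes tested, 2494 (GC correction) to 3361 (DESeq2) fell in these settings, against 2744 in the main fit. The 2-fold rule left 9 lower and 0 higher of the 52, and 14 lower and 0 higher of the 191 related genes. The number of the 52 called higher was 3 with no filter, 3 with the GC correction, 2 with GC content and length corrected, and 4 without control 1 and WDR11OE 4. The same settings gave 12, 14, 23 and 18 of the related genes higher, and RLE scaling gave 17. The length correction moved the median of the 52 to -0.27 with 22 lower calls, and the correction for GC content and length moved it to -0.19 with 16 lower calls. Over all genes tested, 2832 and 2239 fell with these 2 corrections. When each tumor was left out in turn, 3 to 7 of the 52 and 8 to 26 of the related genes were higher. Over all genes tested, 1560 to 2986 were higher in these fits, against 3150 with all 7 tumors.

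Direction changed for single genes, some of them near 0 and some called in the main fit. The called ones were Brd2 (log2 fold change -0.39), Dnmt3a (-0.40), Kdm6a (0.24) and Bmi1 (0.23). Chd7 was at 0.0097 with limma-voom, 0.040 with the GC correction, 0.15 with the length correction, 0.41 with both, and -0.28 to 0.13 when 1 tumor was left out. Kdm4b was at 0.10 and 0.27, Suz12 at -0.27 and -0.23, and Bmi1 at -0.066 and -0.089 with the GC correction and with both. Kdm6a was at -0.068 with the GC correction. Smarcb1 was at 0.033 with the length correction and 0.20 with both, and Ezh2 at 0.061 with the length correction. Brd2 was at 0.19 and Dnmt3a at 0.10 with both corrections. When 1 tumor was left out, Ezh2 was at -0.11 to 0.0099 and Ezh1 at -0.0604 to 0.17, and Ezh1 was at -0.067 without control 1 and WDR11OE 4. Mouse Wdr11 was at -0.0054 with the GC correction and passed at 0.19 with upper quartile scaling, 0.33 with the length correction and 0.28 with both. The cause of these changes was not tested. Counts of at least 465 for each of the 52 genes leave little counting error, and the number of tumors limits the precision. No paired analysis was possible because the labels give no pairing of control with WDR11OE tumors.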
